A study of Mus musculus with 8 samples.

Results

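The genes for the proteins of the cytosolic ribosome were followed in lymphatic endothelium that had been sorted out of mouse ear skin. Members were the genes whose symbol is that of a large-subunit (Rpl, Rplp) or small-subunit (Rps, Rpsa) protein and that at least 1 probe set names alone, with pseudogenes and the S6 kinases left out. This gave 105 probe sets for 49 genes, out of 34945 probe sets and 18193 genes named in this way on the array. Each gene was read from its brightest probe set, and 45 of the 49 genes, 24 of the large and 21 of the small subunit, were bright enough to be tested. The study compared 4 samples from untreated ears with 4 from ears inflamed by oxazolone, a hapten that sensitised mice answer with a skin reaction (the CHS challenge of the labels). All mice were female FVB, and each sample was a pool of 3 mice aged 9, 8, 8 and 10 weeks in pairs 1 to 4. Inflamed mice had received 2% oxazolone on the abdomen and paws, then 1% on both ear sides after 5 days, and were killed 24 hours later. Untreated mice are labelled healthy, and their labels name no vehicle. Cells without the leukocyte antigen CD45 and with CD31 and podoplanin on their surface were sorted. The untreated and the inflamed sample of a pair were sorted and extracted on the same day. RNA was amplified before hybridisation.

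Each cytosolic ribosome joins a large subunit, which forms peptide bonds, and a small subunit, which decodes the message, and each ribosomal protein sits in 1 of them. Most of the proteins are present once in each ribosome, the acidic stalk proteins being the exception, and their mRNAs are abundant in nearly every cell type. In mammals these mRNAs typically start with a terminal oligopyrimidine tract, a run of C and T bases at the transcription start through which mTOR signalling and the protein Larp1 control their translation, so that translation of the family can change without a change in mRNA. In endothelial cells, as elsewhere, ribosome production accompanies growth and activation.

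The start regions of the 11 members past the threshold are shown because an oligopyrimidine tract at the start is the feature these mRNAs are known for. Each window of 30 bases runs 5′ to 3′ on the gene's strand from 10 bases before the annotated transcription start of RefSeq (GRCm38.p6). Capitals mark runs of at least 6 C or T bases.
Rplp2: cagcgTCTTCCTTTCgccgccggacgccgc
Rpl7a: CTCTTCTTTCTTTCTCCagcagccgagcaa
Rpl13a: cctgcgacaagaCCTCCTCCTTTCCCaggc
Rpl27: ctgttcctgtctgctgctcgtgctgctaat
Rpl27a: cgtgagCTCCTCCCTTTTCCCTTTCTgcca
Rpl38: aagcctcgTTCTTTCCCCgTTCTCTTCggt
Rpsa: ttatttaaggacgtcatttccggccgcccg
Rps2: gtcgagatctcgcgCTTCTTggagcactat
Rps18: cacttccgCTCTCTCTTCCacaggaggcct
Rps26: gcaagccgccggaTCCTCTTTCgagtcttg
Rps27l: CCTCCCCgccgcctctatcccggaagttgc

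On the plus strand lie the windows of Rplp2 at chr7:141447641-141447670, Rpl7a at chr2:26910797-26910826, Rpl27 at chr11:101442235-101442264 and Rpl27a at chr7:109519185-109519214. Also on the plus strand are Rpl38 at chr11:114668570-114668599, Rpsa at chr9:120127756-120127785, Rps2 at chr17:24720053-24720082 and Rps27l at chr9:66946076-66946105. The minus-strand windows are those of Rpl13a at chr7:45128726-45128755, Rps18 at chr17:33955646-33955675 and Rps26 at chr10:128626487-128626516. Each covers the promoter side of the start and the first bases of the first exon. For Rps27l, which has 2 annotated starts, the first listed was used. A run of at least 6 pyrimidines was present in 9 of these 11 windows, in 25 of the 43 members with an annotated start (58.1%) and in 28.6% of 27025 genes. Rpl27 and Rpsa had no such run, their longest being 5 bases, and the run of Rps27l ended before the annotated start, so it lies outside the mRNA as annotated. The runs of Rpl13a, Rps2 and Rps26 began only after the annotated start, so they are not at the very end of the mRNA as annotated. The whole 300 bases around the start, 250 before it and 50 after, were searched on both strands for CCGGAAG, the core letters bound by ETS factors such as GABP, and for AAGATGG, the core letters bound by YY1. CCGGAAG was found in 21 of 43 members (48.8%) against 9.12% of all genes, and in 8 of the 11 members past the threshold. AAGATGG was found in 7 of 43 members (16.3%) against 6.48% of all genes, and in 3 of the 11. Reversed, CCGGAAG contains a stretch of 5 pyrimidines and can thus overlap the end of a pyrimidine run. For each of these 3 features the family's share was above that of all genes, which describes its starts and not its response to inflammation.

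The deposited values were array signals scaled by the authors, with a mean of 126.2 to 160.4 per array, and they are given here as log2 signal. Between 53.5% and 62.6% of probe sets per array lay above a background ceiling of 2.53 to 3.31 log2, set from bacterial control probe sets. All 7 lymphatic markers tested were above the ceiling on all 8 arrays. Their mean level was 11.41 to 11.82 in untreated and 10.24 to 11.48 in inflamed samples, lower in the inflamed sample of all 4 pairs. Among them 2, Mmrn1 and Reln, fell. At an unadjusted limma p under 0.05, 5 were lower and 1, Pdpn, was higher, and the median change was -0.72. Markers of other cells also moved. The mean level of the 3 tested neutrophil markers (S100a8, S100a9, Il1b) was 0.16 to 2.29 in untreated and 8.19 to 8.98 in inflamed samples. All 3 rose, but their untreated means of 0.85 to 2.27 lay under the filter level of 3.30 log2. They passed the filter only through the inflamed samples, so the direction of their change was fixed by it. Another 5 of the 8 neutrophil markers on the array did not pass the filter, and 3 of the 8 (Csf3r, Cxcr2, Il1b) were above the ceiling on no untreated and 1 of the 8 (Elane) on no inflamed array. The 5 tested monocyte markers lay at 1.83 to 4.72 and 4.76 to 6.85, the 6 fibroblast markers at 7.18 to 9.33 and 8.19 to 10.35, and the 4 keratinocyte markers at 7.26 to 9.53 and 2.29 to 5.63, in untreated and inflamed samples. Of these, 0 monocyte markers passed the threshold (2 were higher at an unadjusted limma p under 0.05), 1 fibroblast marker, Lum, rose and 3 keratinocyte markers, Krt2, Krt5 and Krt10, fell. Of 6 blood endothelial markers 1, Cd300lg, fell, and of 4 pericyte markers 0 passed (0 at an unadjusted limma p under 0.05). The blood endothelial markers lay at 6.33 to 7.46 and 5.95 to 6.78, and the pericyte markers at 4.89 to 8.89 and 5.02 to 6.26. The blood endothelial mean includes Cd300lg, with a change of -6.65. Of the 6 blood endothelial markers 4 had a change above 0, with a median of 0.19, and of the 4 pericyte markers 1, with a median of -0.65. None of the 4 T cell markers on the array passed the filter. Like the neutrophil markers, Fcgr1, Cd14 and Col14a1 passed it only through the inflamed samples. Krt2, Krt10, Rgs5 and Cd300lg passed it only through the untreated ones. Over all genes tested, 3.91% rose and 3.02% fell. The log2 ratio of the signal near the 3′ end over that near the 5′ end is a sign of RNA integrity and amplification. For Gapdh it was 3.40 to 4.16 in untreated and 2.58 to 3.30 in inflamed samples, lower in all 4 pairs. For Actb its mean was -0.08 in untreated and -0.07 in inflamed samples, and it was higher in 2 of 4 pairs. The part of the marker and Gapdh shifts in the ribosomal protein values was not tested. In a sorted bulk sample, fewer cells of a type and less RNA per cell cannot be told apart.

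Under the authors' scaling, ribosomal protein signal was slightly higher in the inflamed samples across almost the whole family. The median over the 45 genes was 11.02, 11.24, 11.06 and 11.65 in untreated samples of pairs 1 to 4, and 11.63, 11.66, 11.46 and 11.89 in the inflamed ones. The untreated sample of pair 4 thus overlapped the inflamed group, and within each pair the inflamed sample was the higher one. The fitted change was above 0 in 44 of 45 genes, against 46.2% of the 10843 genes tested. It was above 0 in 45 with median centring (59.3% of all genes), but in 35 after quantile normalization (48.9%), 34 after loess (50%), 34 with centring on the hybridisation controls (34.6%) and 42 with centring on the brightest 10% of other genes (41.4%). Its median was 0.39, or 1.31-fold, against -0.09 over all genes. The step was even: within pairs 1 to 4 the median change was 0.40, 0.40, 0.47 and 0.41. Large-subunit genes had a median change of 0.39 and small-subunit genes one of 0.40, so the subunits moved side by side. Of the summed signal of all tested genes, ribosomal proteins took 2.96% to 3.79% in untreated and 3.57% to 4.24% in inflamed samples.

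**Figure D1:**
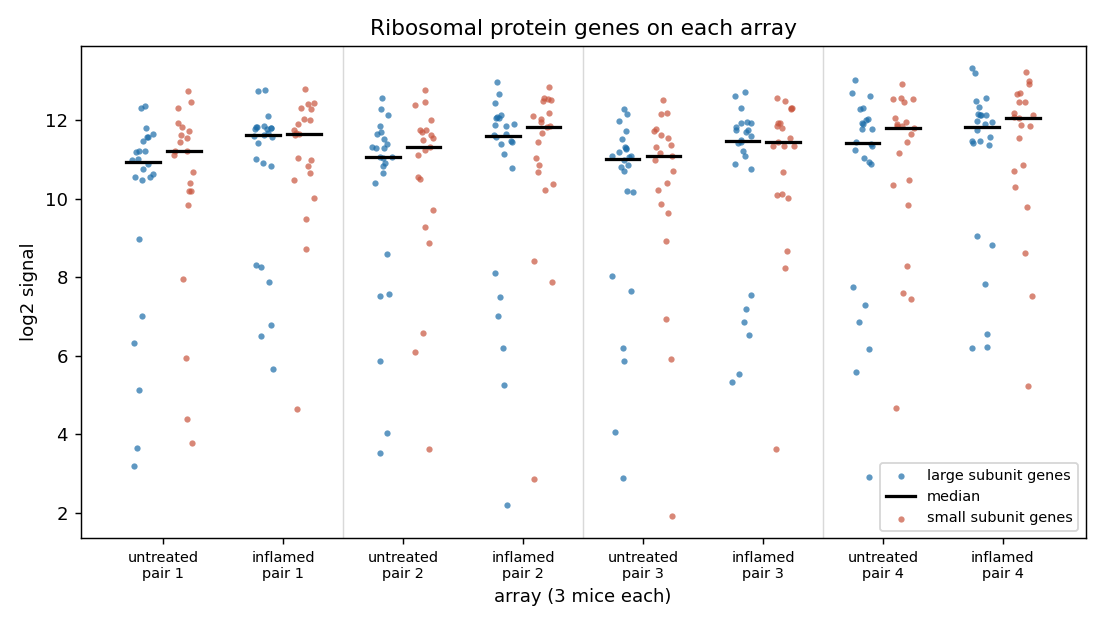
Log2 signal of the 45 tested ribosomal protein genes (points) on each of the 8 arrays, with black bars at the median of the large- and the small-subunit genes. In each pair both bars are higher on the inflamed array, and the few dim genes lie far below the main band.

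At an adjusted p under 0.05 (limma, Benjamini-Hochberg over all genes tested), 11 of the 45 genes rose, 24.4% against a background of 3.91% of all genes, and 0 fell, against a background of 3.02%. At an unadjusted p under 0.05, 28 were higher and 0 lower, against 10.5% and 11.5% of all genes. By subunit, 6 of 24 large-subunit and 5 of 21 small-subunit genes rose. The signal was higher in all 4 pairs for 30 of 45 genes, against 13.6% of all genes. The groups did not overlap, with all inflamed samples higher, for 9 of 45 genes, against 6.3% of all genes. Bright genes were called more often on these arrays: of the brightest 10% of tested genes, 14.7% rose, 60.8% had a change above 0, 32.4% were higher in all 4 pairs and the median change was 0.15. Among these genes were 35 members, of which 10 rose, all 35 had a change above 0, 28 were higher in all 4 pairs and the median was 0.38. Groups without overlap, inflamed higher, were found for 173 of the 1085 genes in the brightest 10% and for 7 of these 35 members. By that measure the members lay closer to other bright genes than to all genes.

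The size of the family's step was not far above that of features that are not endothelial mRNA. The hybridisation controls, bacterial and phage transcripts added to every sample at set amounts (18 probe sets for BioB, BioC, BioD and Cre), were all higher in the inflamed samples, by 0.16 to 0.31 with a median of 0.28. The 3 probe sets for 18S ribosomal RNA were higher by 0.19 to 0.27. Of the 45 ribosomal protein genes, 33 had a change above the median of the hybridisation controls and 29 one above their highest. In pairs 1 to 4 the controls' median change was 0.19, 0.19, 0.35 and 0.38, beside 0.40, 0.40, 0.47 and 0.41 for the ribosomal proteins. The number of calls depended on how the arrays were scaled. With each array centred on its median 28 members rose, against 6.63% of all genes. With quantile normalization 1 rose (background 3.38%), and with cyclic loess 1 (background 3.5%). With arrays centred on the hybridisation controls 1 rose (background 2.77%) and the median change was 0.13, and with arrays centred on the brightest 10% of other genes 6 rose (background 3.34%). Other fits under the authors' scaling gave 4 without the pair as a block (background 3.54%), 6 with the pair as a random block (background 4%) and 0 without an intensity trend (background 0.867%), where 4 were higher at an unadjusted limma p under 0.05. Over all genes the median change went to 0.22 under median centring and to -0.36 under centring on the controls, from -0.09, and the share of rises among all calls went from 56.4% to 76.0% and 35.6%. The distance between the ribosomal protein median and that of all genes was 0.48 under the authors' scaling, which no centring changes, 0.18 after quantile normalization and 0.13 after loess. The even step of the family is therefore given relative to the scaling, and why it lay near that of the controls was not tested.

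**Figure D2:**
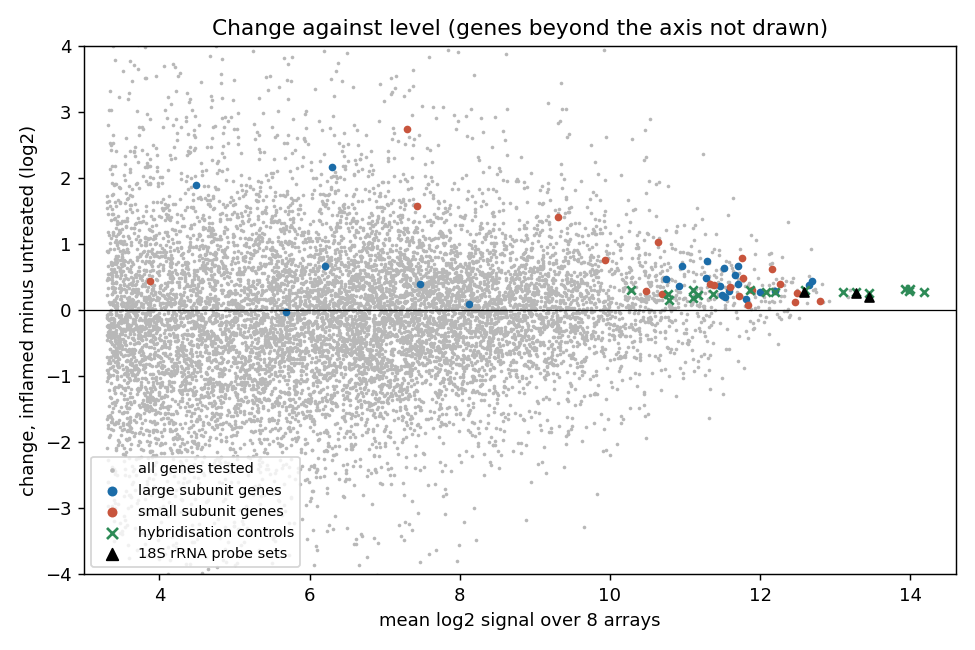
Change (inflamed minus untreated, log2) against mean log2 signal over 8 arrays for all genes tested, large- and small-subunit genes, 18 hybridisation control probe sets and 3 probe sets for 18S ribosomal RNA, without the 150 genes beyond the axis limit of 4. Most ribosomal protein genes form a narrow band just above 0 at the bright end, beside the controls, while dim members scatter widely.

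**Figure D3:**
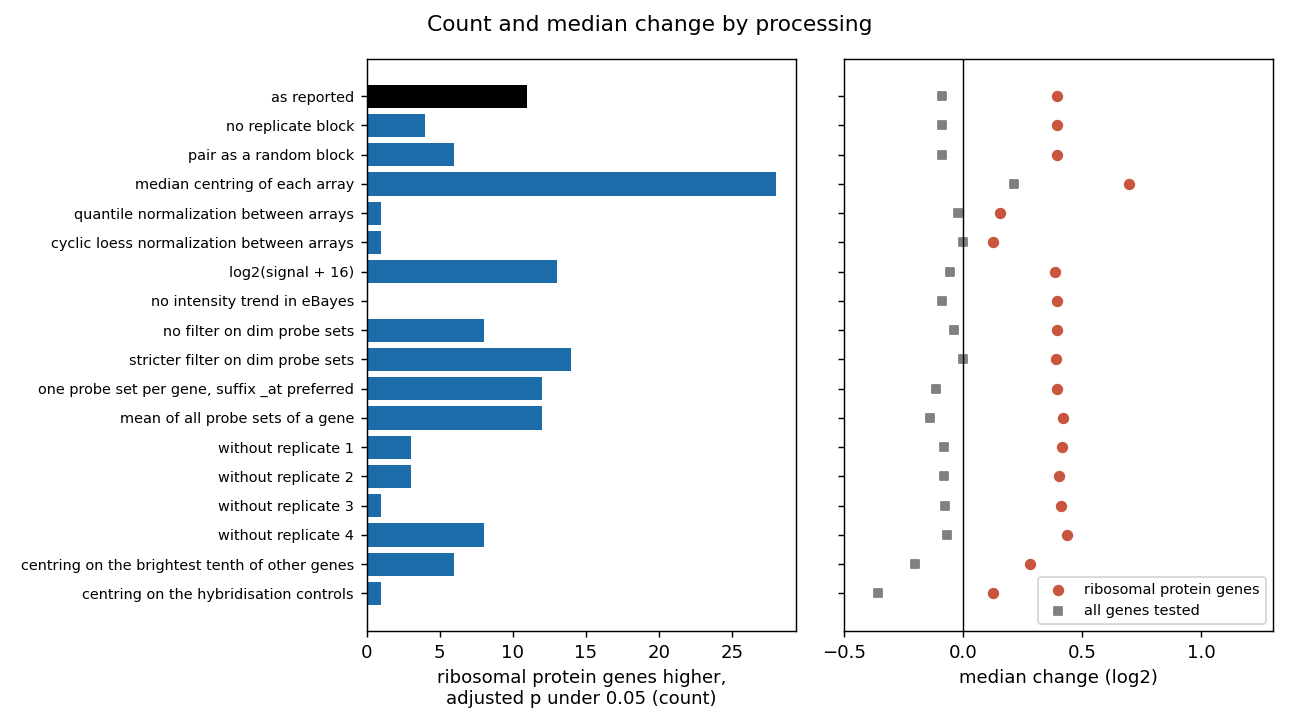
Number of ribosomal protein genes that rose (bars) and, in log2, the median change of these and of all genes tested (points), as reported and under each alternative but the test of single probe sets and the left-out pairs with probe sets kept. The number runs from 0 without an intensity trend to 28 with median centring.

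Rps27l, a paralog of Rps27 known as a target of p53, was the member that stood out. Values of single samples are given in the order of pairs 1 to 4. Its signal in pairs 1 to 4 was 7.96, 9.28, 8.91 and 8.28 in untreated samples and 10.02, 10.23, 10.02 and 9.79 in inflamed ones. Every inflamed sample lay above every untreated one. The change of 1.41 ± 0.29 (SE, n = 4 pairs; 2.65-fold) passed the test at an adjusted p of 0.0196. It also passed under each scaling tried, from 1.14 with centring on the hybridisation controls (adjusted p = 0.0478) to 1.71 with median centring (adjusted p = 0.00952). No other member did so. The 2 other Rps27l probe sets had changes of 1.16 and 1.25 and were higher in all 4 pairs, but missed the threshold (adjusted p = 0.107 and 0.0819). The call was lost without replicate 1, 3 or 4 (adjusted p = 0.0854, 0.0735 and 0.0554, with changes of 1.19 to 1.50), with probe sets kept also narrowly without replicate 2 (adjusted p = 0.0501), and without an intensity trend (adjusted p = 0.143). Its parent Rps27, a zinc finger protein of the small subunit, was measured only near background, at 3.65 ± 1.24 in untreated and 4.09 ± 1.06 in inflamed samples (SD, n = 4). Its change of 0.44 ± 0.78 (SE) missed the test (adjusted p = 0.805) and was 0.017 to 0.84 leaving out 1 pair, and whether the paralogs differ was not tested.

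Among the small-subunit genes past the threshold, Rps26, a protein at the mRNA exit of the ribosome, had the next largest change. Signals were 10.40, 9.73, 9.88 and 10.48 in the untreated samples against 10.67, 11.04, 11.34 and 11.54 in the inflamed. The groups did not overlap, and pair 1 showed the smallest step. The change was 1.02 ± 0.22 (2.03-fold, adjusted p = 0.0262), and the call was lost without replicate 2, 3 or 4 (adjusted p = 0.100, 0.132 and 0.0680). Rps2, a small-subunit protein and substrate of the arginine methyltransferase Prmt3, had the smallest p of the family. It measured 11.11, 11.24, 11.16 and 11.95 in the untreated samples against 12.01, 12.20, 11.92 and 12.46 in the inflamed. The only overlap came from the untreated sample of pair 4, which lay above the inflamed sample of pair 3. The change was 0.78 ± 0.13 (1.72-fold, adjusted p = 0.00733) and stayed past the threshold whichever pair was left out, but missed it after quantile normalization (0.51, adjusted p = 0.0502), loess (0.48, adjusted p = 0.0611) and centring on the controls (0.51, adjusted p = 0.0545). Rpsa, the small-subunit protein also known as the laminin receptor precursor, measured 11.64, 11.56, 11.73 and 12.46 against 12.32, 12.56, 12.31 and 12.67. Here too the untreated sample of pair 4 reached into the inflamed range. Its change was 0.62 ± 0.13 (1.53-fold, adjusted p = 0.0258). Rps18, a protein of the head of the small subunit, measured 11.22, 11.62, 11.38 and 11.91 against 11.62, 12.11, 11.86 and 12.47, and every pair rose by a similar step. Its change was 0.48 ± 0.11 (1.40-fold, adjusted p = 0.0341). Leaving out 1 pair ended the call of Rpsa for replicate 1, 2 or 3 (adjusted p = 0.111, 0.106 and 0.101) and of Rps18 for each replicate (adjusted p = 0.0884 to 0.118).

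**Figure D4:**
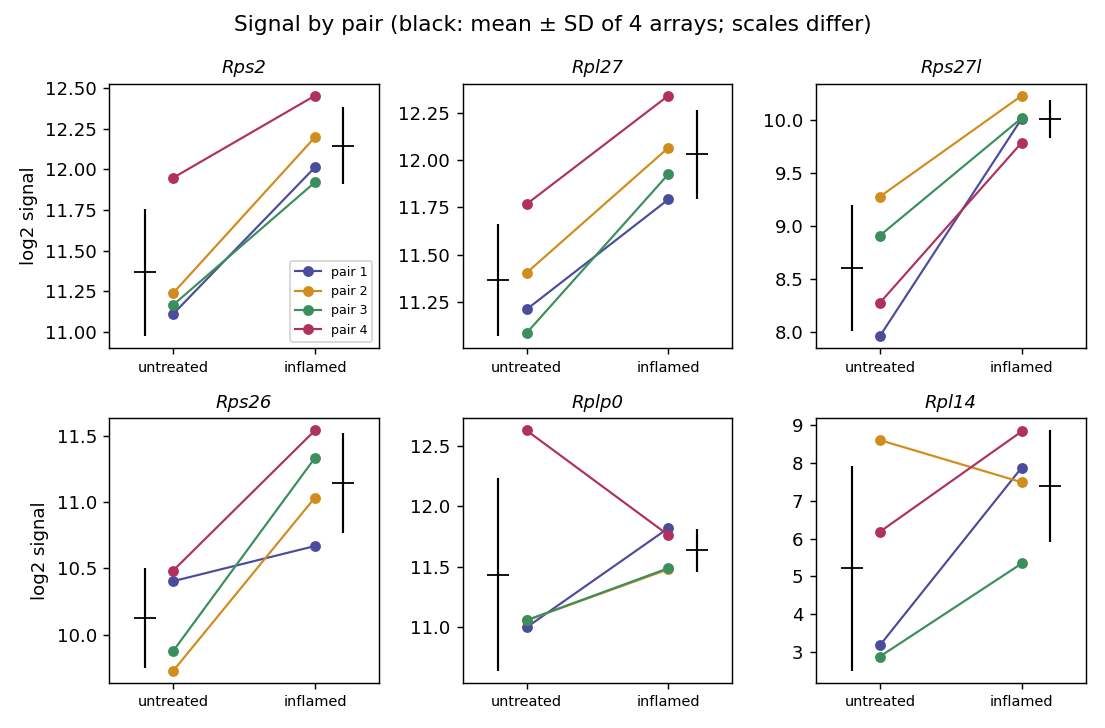
Log2 signal of 6 ribosomal protein genes in the untreated and inflamed sample of each pair (coloured lines), with the group mean ± SD (n = 4) in black on scales that differ between panels. Rps2, Rpl27, Rps27l and Rps26 are higher in the inflamed sample of all 4 pairs, whereas the Rplp0 line of pair 4 and the Rpl14 line of pair 2 go down.

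Some small-subunit genes with large changes did not pass the test. Rps25, a protein needed for initiation at several internal ribosome entry sites, measured 3.79, 6.57, 5.92 and 7.44 in the untreated samples against 9.48, 7.88, 8.67 and 8.62 in the inflamed. The groups did not overlap, but untreated samples spread over more than 3 log2 units. Its change was 2.74 ± 0.73 (adjusted p = 0.0586), or 1.75 without replicate 1. It passed with no replicate block (adjusted p = 0.0379) and with median centring (adjusted p = 0.0362). It also passed with the pair as a random block, with 16 added to the signal, with a stricter filter and with the mean of all probe sets. Under the other scalings, and whichever pair was left out, Rps25 missed the threshold. Rps6, the substrate of the S6 kinases, measured 5.93, 6.11, 6.94 and 7.60 against 8.73, 8.42, 8.24 and 7.52. It was higher in 3 pairs and slightly lower in pair 4, and its change was 1.58 ± 0.55 (adjusted p = 0.129). Rps19, mutated in Diamond-Blackfan anaemia, measured 9.83, 8.87, 9.65 and 9.84 against 10.47, 10.37, 10.12 and 10.29. Its groups did not overlap, with a change of 0.76 ± 0.25 (adjusted p = 0.110) that passed under median centring (adjusted p = 0.0291). At the other end lay bright genes with small changes. These were Rps20 at 0.25 (higher in all 4 pairs), Rps28 at 0.13, Rps29 at 0.13 and Rps4x, the X-linked gene for protein S4, at 0.08. These 4 turned below 0 after quantile normalization, after loess and with centring on the hybridisation controls, and missed the threshold there. With median centring Rps20 and Rps29 passed it, while Rps28 and Rps4x did not.

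In the large subunit, the stalk that recruits translation factors was represented by Rplp0, its base, and Rplp2, an acidic protein bound to it. Rplp2 measured 11.18, 11.30, 11.19 and 11.92 in the untreated samples against 11.77, 12.06, 11.74 and 12.13 in the inflamed. The untreated sample of pair 4 lay above the inflamed samples of pairs 1 and 3. The change of 0.53 ± 0.13 (1.44-fold) was close to the threshold at an adjusted p of 0.0463, and it was lost without replicate 1, 2 or 3 (adjusted p = 0.153, 0.173 and 0.156). Rplp0, often used as a reference gene in expression assays, measured 11.00, 11.06, 11.06 and 12.62 against 11.82, 11.48, 11.49 and 11.76. It was higher in the inflamed sample of 3 pairs and lower in that of pair 4. Its change of 0.20 ± 0.24 did not pass (adjusted p = 0.688), and it was 0.56 without replicate 4 (adjusted p = 0.0888). Rplp1, the other acidic stalk protein, had no probe set to itself here.

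Rpl7a, a large-subunit protein that binds ribosomal RNA, measured 10.56, 10.90, 10.81 and 11.40 in the untreated samples against 11.60, 11.64, 11.46 and 11.96 in the inflamed. The groups did not overlap. The change was 0.75 ± 0.14 (1.68-fold, adjusted p = 0.0153). Rpl27, another protein of the large subunit, measured 11.21, 11.40, 11.08 and 11.77 against 11.79, 12.07, 11.93 and 12.34, again without overlap. Its change was 0.67 ± 0.12 (1.59-fold, adjusted p = 0.0112). All 3 Rpl27 probe sets rose when tested on their own, by 0.62 to 0.67. Rpl27a, which despite its name is a separate protein, measured 10.75, 11.52, 11.09 and 11.44 against 11.78, 11.85, 11.61 and 12.13. Its change was 0.64 ± 0.15 (1.56-fold, adjusted p = 0.0331), while its second, dim probe set had a change of -1.32 (adjusted p = 0.460), and the mean of both probe sets one of -0.34. That dim probe set passed the filter only through the untreated samples, its inflamed mean being 2.65.

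Rpl38, linked in mice to translation of Hox mRNAs, measured 12.32, 12.56, 12.30 and 12.70 in the untreated samples against 12.74, 12.97, 12.73 and 13.20 in the inflamed. Each pair moved by nearly the same amount and the groups did not overlap. The change was 0.44 ± 0.08 (1.36-fold, adjusted p = 0.0126). Rpl13a, known both as a reference gene and for its release from the ribosome after interferon-gamma, measured 12.37, 12.29, 12.15 and 13.04 against 12.78, 12.67, 12.63 and 13.33. The untreated sample of pair 4 lay above 3 of the 4 inflamed samples. Its change was 0.39 ± 0.08 (1.31-fold, adjusted p = 0.0269), and its 3 other probe sets had changes of 0.09, 0.92 and 1.26. After loess the change was 0.072 for Rpl38 (adjusted p = 0.677) and 0.019 for Rpl13a (adjusted p = 0.932). Quantile normalization gave 0.16 and 0.11, and centring on the controls 0.17 and 0.12, and both missed the threshold there. With median centring both passed, at 0.74 and 0.69 (adjusted p = 0.00315 and 0.00541). Without replicate 1, 2 or 3 the calls of Rpl7a (adjusted p = 0.0762, 0.0608 and 0.0635), Rpl38 (adjusted p = 0.0557, 0.0581 and 0.0601) and Rpl13a (adjusted p = 0.108, 0.0919 and 0.113) were lost. Rpl27 lost its call without replicate 3 (adjusted p = 0.0662), with probe sets kept also without replicate 2 (adjusted p = 0.0537), and Rpl27a without any 1 of the 4 (adjusted p = 0.0541 to 0.133). Over the whole family, with probe sets picked again each time, 3, 3, 1 and 8 members rose without replicates 1, 2, 3 and 4, against backgrounds of 2.23%, 2.47%, 1.78% and 2.7%. With the probe sets of the full fit kept, 3, 1, 1 and 8 rose, against 2.24%, 2.23%, 1.92% and 2.82%. Rps2 was the only one to rise in each of these.

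**Figure D5:**
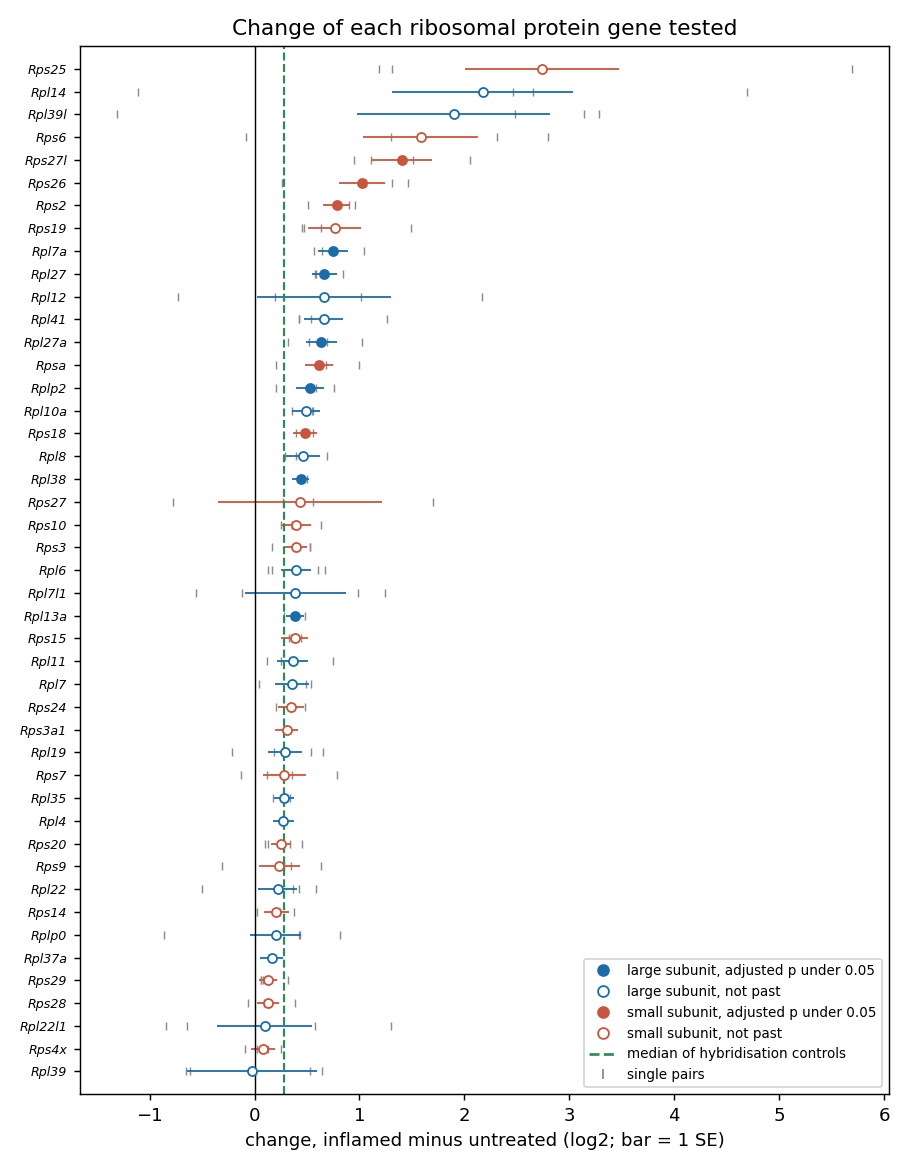
Change (inflamed minus untreated, log2) with its standard error for each of the 45 tested ribosomal protein genes, coloured by subunit, with filled points for the 11 past the threshold, grey ticks for single pairs and a dashed line at the median of the hybridisation controls (0.28). The medians of the large and small subunit are 0.39 and 0.40, and the widest error bars belong to genes with low signal.

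The dim members spread more than the bright ones. Rpl14, of the large subunit, measured 3.18, 8.60, 2.88 and 6.18 in the untreated samples against 7.88, 7.49, 5.34 and 8.84 in the inflamed. The untreated samples covered most of the range of the inflamed ones. Its change was 2.17 ± 0.87 (adjusted p = 0.179), or 1.33 without replicate 1 and 3.27 without replicate 2. Rpl12 was at 5.87 ± 1.37 in untreated and 6.54 ± 0.28 in inflamed samples (SD, n = 4), with a change of 0.66 ± 0.64 (SE; adjusted p = 0.606), or 0.16 without replicate 2 and 1.13 without replicate 4. The 10 members outside the brightest 10% had a median standard error of 0.63, against 0.13 for the 35 within it. Probe sets differ in affinity, so a low signal does not rank 1 gene below another. Within each group the samples of pair 4 tended to be highest: they held the top value for 36 of 45 members among the untreated and 32 of 45 among the inflamed samples. The median SD over members was 0.35 among the untreated and 0.27 among the inflamed samples.

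The other tested paralogs, Rpl39l, Rpl22l1 and Rpl7l1, did not pass the test. Rpl39l, the testis paralog of the exit tunnel protein Rpl39, measured 3.65, 3.52, 4.06 and 2.91 in the untreated samples against 6.79, 2.21, 6.54 and 6.19 in the inflamed. The inflamed sample of pair 2 stood apart from the other three, and the change was 1.90 ± 0.92 (adjusted p = 0.270), or 2.97 without replicate 2. Rpl39 itself had the lowest change of the family, -0.02 ± 0.62 (adjusted p = 0.988), which turned above 0 under median centring, quantile normalization and loess. The change of Rpl22l1 was 0.10 ± 0.45 (adjusted p = 0.937) and that of its parent Rpl22, known from T cell development, 0.22 ± 0.18 (adjusted p = 0.542). Rpl22 turned below 0 under quantile normalization, loess and centring on the controls, and Rpl22l1 under centring on the controls or on the brightest 10% of genes. That of Rpl7l1 was 0.39 ± 0.48 (adjusted p = 0.698), or 0.10 to 0.70 leaving out 1 pair, and that of Rpl7 0.36 ± 0.16 (adjusted p = 0.232). The muscle paralog Rpl3l was above the background ceiling in 1 of 4 untreated and 0 of 4 inflamed samples, and Rps4l in 3 of 4 and 1 of 4. Both missed the filter, as did Rpl37 (1 of 4 and 1 of 4 above the ceiling) and Rps16 (0 of 4 and 0 of 4).

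Probe sets of a gene did not always move together. Of the 105 probe sets, 93 passed the filter, and tested on their own 18 rose, against a background of 3.13%, and 0 fell, against 2.59%, with 1 lower at an unadjusted limma p under 0.05. The change was above 0 in 85 of the 93, against 44.5% of all such probe sets. Of 22 genes with several tested probe sets, 15 had changes of 1 sign and 7 of mixed sign. Among all member probe sets, 43 carry a suffix that marks probes shared with other transcripts, which bears on a family with many processed pseudogenes. A further 110 probe sets name a ribosomal protein gene together with other genes, mostly copies, and 28 ribosomal protein genes are found only there. Of the 103 that passed the filter, 97 had a change above 0, 22 rose, against 3.18% of all probe sets past the filter, and 0 fell, with 0 lower at an unadjusted limma p under 0.05. Their median change was 0.34.

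Genes around the ribosome were read from 5 lists. Over all genes tested, 3.91% rose and 3.02% fell, and the median change was -0.09. At an unadjusted limma p under 0.05, 10.5% of all genes were higher and 11.5% lower. Of 14 non-ribosomal mRNAs with an oligopyrimidine tract, 2 rose and 0 fell (5 higher and 1 lower at an unadjusted limma p under 0.05), with a median of 0.19 that turned to -0.09 after quantile normalization. Npm1, a nucleolar chaperone of ribosome assembly, measured 11.53, 11.72, 11.65 and 11.84 in the untreated samples against 12.39, 12.49, 12.45 and 12.83 in the inflamed. The groups were clearly apart, and its change of 0.86 ± 0.10 (1.81-fold, adjusted p = 0.00164) passed under each scaling tried, down to 0.53 after loess. Nap1l1, a histone chaperone, had a change of 0.95 ± 0.18 (adjusted p = 0.0129). It passed under each scaling too, but not without replicate 1 or 3 (adjusted p = 0.0614 and 0.0694). Eef1b2, an elongation factor subunit, had a change of 0.54 (adjusted p = 0.0549) and Eif4b, an initiation factor, one of -0.97 (adjusted p = 0.0861). Of 6 partners of the ribosome 0 passed (4 higher and 0 lower at an unadjusted limma p under 0.05), with a median change of 0.50. They include the nascent chain factors Naca (0.50, adjusted p = 0.113) and Btf3 (0.50, adjusted p = 0.201), the ribosome-bound Serbp1 (0.47, adjusted p = 0.0575) and the anti-association factor Eif6 (1.10, adjusted p = 0.0932).

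Among 16 genes that control translation of these mRNAs through mTOR, 1 fell and 0 rose, against 3.02% and 3.91% of all genes. At an unadjusted limma p under 0.05, 2 were higher and 3 lower, against 10.5% and 11.5% of all genes. The median was -0.46, against -0.09 over all genes. Sesn1, a p53 target that restrains mTOR complex 1 when leucine is scarce, measured 9.00, 9.20, 9.34 and 8.57 in the untreated samples against 6.98, 4.28, 6.51 and 5.01 in the inflamed. Every inflamed sample lay far below the untreated ones, and the change was -3.33 ± 0.55 (adjusted p = 0.00828). It passed whichever pair was left out when its probe set was kept (-2.80 to -3.77). When the brightest probe set was picked again, another one took its place without replicate 1 and without replicate 3. Without replicate 3 that probe set had a change of -2.30 (adjusted p = 0.157). The translational repressor Eif4ebp1 (1.49, adjusted p = 0.117), Larp1 (1.05, adjusted p = 0.135) and the S6 kinase Rps6kb2 (-3.24, adjusted p = 0.168, or -1.34 without replicate 4) missed the test. Of 11 genes for transcription of ribosomal protein genes and the ribosomal stress response, 0 passed (2 higher and 1 lower at an unadjusted limma p under 0.05), with a median of -0.05. The p53 target Cdkn1a (1.69, adjusted p = 0.0560) and Myc (1.13, adjusted p = 0.0605), a driver of ribosome production, were higher in all 4 pairs without overlap. Mxi1 (-1.64, adjusted p = 0.194), a Myc antagonist, and the general factor Sp1 (-0.66, adjusted p = 0.261) missed the test. Of 8 genes listed as chaperones of single ribosomal proteins, 1 rose and 0 fell (1 higher and 0 lower at an unadjusted limma p under 0.05), with a median of 0.43. The list includes Nacc1, which is not established as such a chaperone. The gene that rose was Grwd1, which binds Rpl3 and histones and is named here because it was the only call, after its values were seen. It measured 3.95, 5.23, 5.84 and 7.21 against 8.38, 9.41, 8.92 and 10.08, a change of 3.64 ± 0.48 (adjusted p = 0.00254). Its groups did not overlap. Read from a probe set with the plain suffix _at where 1 exists, Nap1l1 (0.36, adjusted p = 0.569), Sesn1 (-2.06, adjusted p = 0.100) and Grwd1 (2.32, adjusted p = 0.0509) missed the threshold. Of their probe sets in the full fit, those of Sesn1 and Grwd1 carry the suffix that marks shared probes, and that of Nap1l1 does not.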

How the data were processed

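Each of the 8 samples was hybridised to 1 single-colour array with 45101 probe sets. The deposited intensity values are signals that the authors computed with MAS5, as the submitters' processing notes name it. Neither its version nor its scaling target is given in the sources. The authors' scaling was kept and log2 taken, with no pseudocount. Genes were named from the platform annotation given with the data: 34945 probe sets name 1 gene, 932 several and 9160 none, beside 64 controls. Each gene was read from the single-gene probe set with the highest mean, and had to reach a mean of 3.30 log2, the median over non-control probe sets, which left 10843 genes. Changes were fitted with limma 3.58.1 in R 4.3.3 (lmFit, eBayes with intensity trend, two-sided) on all 8 arrays with the pair as a block, and p-values were adjusted by Benjamini-Hochberg over all genes. The fit was tested on simulated data. Errors of changes are limma's moderated standard errors.

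That pairs were handled on the same day is stated in the series' design text. Deviations from the group means correlated within pairs 1 to 4 at 0.16, -0.00, 0.08 and 0.03 across genes, which are not independent replicates. Across the tested ribosomal protein genes they correlated at -0.22, 0.04, 0.68 and -0.08. A correlation across genes leaves out any shift that all genes of a pair share, so it cannot show one. P-values refer to pools of 3 mice, with 3 residual degrees of freedom, and the number of arrays limits the precision.

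The background ceiling was the 95th percentile of 27 bacterial control probe sets not spiked into the hybridisation mix. Both this rule and the members, lists and rule for named genes were chosen with earlier results of these data known. Members named were those past the threshold, the 8 largest rises, up to 8 falls, of which there was 1 (Rpl39), the 5 brightest and 5 dimmest, stalk genes, Rpsa, Rps6, Rpl13a and paralogs with their parents, 28 in all. Of each list but the chaperones, the 4 genes with the smallest p were named. Start sequences were matched by symbol for 43 of 49 members. Other scalings, filters, probe set rules, blocks and left-out pairs were tried, and 2 scalings, on the brightest 10% of other genes and on the hybridisation controls, and left-out pairs with the probe sets kept were chosen after seeing the data.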

Additional observations from a re-analysis of the deposited data

Results flagged for a closer look

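A sample far from the other 3 of its group, by Dixon's test, was found in 4 of 60 groups checked over the named ribosomal protein genes and their array medians, and chance marks about 1 in 20 groups. Rplp0 in the untreated sample of pair 4 was at 12.62 log2, with the nearest other untreated sample at 11.06. In the same sample Rps2 was at 11.95 (nearest 11.24) and Rplp2 at 11.92 (nearest 11.30). Rpl39l in the inflamed sample of pair 2 was at 2.21, with the nearest other inflamed sample at 6.19.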

How the results depend on the processing

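The limits of the ribosomal protein result are its small size beside the shift of the hybridisation controls, 4 pairs, and probe sets shared with gene copies. Of 45 genes tested, 11 rose. With no replicate block 4 rose (3 of them among the 11), so the pairing mattered to the count, and with the pair as a random block 6 did. Median centring gave 28, quantile normalization 1, loess 1, centring on the brightest 10% 6, on the hybridisation controls 1, no intensity trend 0 (4 higher at an unadjusted limma p under 0.05) and each probe set on its own 18. Leaving out 1 pair gave 1 to 8, with probe sets picked again or kept. The causes were not tested, beyond the fewer samples in the last. The median change of large-subunit genes was 0.39, and 0.69 with median centring, 0.16 with quantile normalization, 0.16 with loess, 0.28 on the brightest 10%, 0.12 on the controls and 0.42 to 0.46 leaving out 1 pair. For small-subunit genes it was 0.40, and in the same order 0.70, 0.12, 0.11, 0.29 and 0.13, and 0.35 to 0.41 leaving out 1 pair. The 5 other settings kept the count within 1.5 times, and all settings not given here moved the medians by less than the spread between pairs.

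Among the named members, signs turned only for genes that missed the threshold there. Over all 45, 35 were above 0 after quantile normalization, 34 after loess and 34 with centring on the controls. Quantile normalization gave Rpl22 -0.030, Rpl39 0.16, Rplp0 -0.040, Rps20 -0.029, Rps28 -0.14, Rps29 -0.16 and Rps4x -0.21. Loess gave Rpl22 -0.056, Rpl39 0.19, Rplp0 -0.079, Rps20 -0.10, Rps28 -0.22, Rps29 -0.25 and Rps4x -0.22. Centring on the controls gave Rpl22 -0.047, Rpl22l1 -0.17, Rplp0 -0.067, Rps20 -0.015, Rps28 -0.14, Rps29 -0.14 and Rps4x -0.19, and on the brightest 10% Rpl22l1 -0.014 and Rps4x -0.031. Median centring gave Rpl39 0.28. The mean of all probe sets gave Rpl22 -0.17 and Rpl27a -0.34. Leaving out 1 pair gave Rpl39 0.17 (replicate 2) and 0.19 (replicate 3), Rpl22l1 -0.064 (replicate 2) and -0.30 (replicate 4), and Rplp0 -0.0039 (replicate 1) to 0.56 (replicate 4).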

Other observations

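Dim probe sets of some members moved much further than their bright ones. For Rps18, a probe set at 4.35 ± 1.87 in untreated and 8.36 ± 0.95 in inflamed samples (SD, n = 4) had a change of 4.01 ± 0.59 (SE; limma adjusted p = 0.00494 over all probe sets), against 0.48 for the bright one. For Rps9 a dim probe set had a change of 3.65 (adjusted p = 0.0517) against 0.24, and for Rps20 one of 2.88 (adjusted p = 0.0892) against 0.25. The Rps9 probe set had an untreated mean of 2.57, under the filter level of 3.30. It passed the filter only through the inflamed samples, so the direction of its change was fixed by it. For Rpl37a a dim probe set went the other way, with -1.98 (adjusted p = 0.150) against 0.16. These genes were picked after their values were seen.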
